A study of Mus musculus with 18 samples.

Results

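The B-lineage genes described here are 9 members, Cd79a, Cd79b, Ighm, Ighd, Ms4a1, Ebf1, Pax5, Vpreb3 and Igll1, read out in mouse bone marrow cells grown for 4 days under myeloid conditions. They were found by matching the gene IDs of the count files to GENCODE M21 symbols, which gave all 9 among 55536 IDs, and all 9 were among the 28334 genes with enough counts to test. Bone marrow was taken from BALB/c wild-type (WT) mice or from mice labelled Cysltr1-/-, whose strain was not given separately; Cysltr1 encodes the type 1 receptor for cysteinyl leukotrienes. Every culture held 40 ng/mL of GM-CSF, which drives the growth of granulocytes and macrophages, so no group lacked it. It was given alone, together with IL-6 at 40 ng/mL, or together with 50% v/v medium in which EMT6 mouse mammary carcinoma cells had been kept for 24 h. The 6 groups held 3 libraries each, 18 in all, and each sample came from marrow pooled from 3 mice. Whole cultures were sequenced, so the libraries hold whatever non-myeloid marrow cells were still present, and the labels state no sort.

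B cells arise in the marrow from progenitors in which the transcription factor EBF1 and then PAX5 switch on and fix the B-cell programme. IGLL1 (lambda 5) is the surrogate light chain part of the pre-B-cell receptor, and VPREB3 is a small protein of the endoplasmic reticulum that binds newly made heavy chains. CD79A and CD79B are the signalling chains of the B-cell receptor, and MS4A1 is the surface protein CD20. Ighm and Ighd encode the constant regions of IgM and IgD, and mature naive B cells make both from a single primary transcript by alternative splicing and choice of polyadenylation site.

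The start of the first constant exon of each heavy-chain gene is shown because the contrast between Ighm and Ighd is the sharpest pattern among the members. Both lie on the minus strand of chromosome 12 in GRCm38 (mm10). The Ighm stretch is the first 90 of 315 bases of its exon 1 (chr12:113422641-113422730) and the Ighd stretch the first 90 of 282 bases of its exon 1 (chr12:113416235-113416324). Both are from GENCODE M21 transcripts and read 5′ to 3′.
Ighm: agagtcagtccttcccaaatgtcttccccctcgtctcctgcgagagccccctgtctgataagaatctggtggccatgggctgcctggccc
Ighd: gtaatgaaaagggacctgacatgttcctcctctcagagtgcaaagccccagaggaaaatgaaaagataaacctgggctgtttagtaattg
Read base against base without gaps, 32 of the 90 positions were the same, and the 2 whole exons shared 0 stretches of 25 bases. Reads of that length within these exons can therefore be told apart between the genes.

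Promoter windows are shown for Vpreb3 and Igll1, the members with the fewest counts and the only ones whose windows held a match. The windows run from 250 bases before to 50 bases after a RefSeq transcription start (GRCm38.p6), and such windows were found for 5 of the 9 members, 6 windows in all. They were searched on both strands for the core of the EBF motif, CCCNNGGG, and for the octamer of immunoglobulin promoters, ATGCAAAT or its complement ATTTGCAT. The capitals mark the only matches. Vpreb3 (chr10:75948050-75948349, plus strand) holds the octamer 45 bases before the start, and Igll1 (chr16:16863936-16864235, minus strand) holds the EBF core 231 bases before it.
Vpreb3: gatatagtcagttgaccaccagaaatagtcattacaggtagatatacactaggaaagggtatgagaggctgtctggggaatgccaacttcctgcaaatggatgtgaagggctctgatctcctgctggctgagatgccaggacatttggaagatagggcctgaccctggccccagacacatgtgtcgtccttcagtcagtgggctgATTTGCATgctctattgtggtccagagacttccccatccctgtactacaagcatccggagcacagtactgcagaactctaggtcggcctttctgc
Igll1: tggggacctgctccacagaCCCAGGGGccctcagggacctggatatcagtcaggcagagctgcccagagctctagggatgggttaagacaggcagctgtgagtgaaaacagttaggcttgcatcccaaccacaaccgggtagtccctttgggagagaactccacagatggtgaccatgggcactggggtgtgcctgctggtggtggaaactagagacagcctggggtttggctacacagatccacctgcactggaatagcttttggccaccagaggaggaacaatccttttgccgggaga
The windows of Cd79a, Pax5 and Ebf1 held neither. Among 32851 windows of all genes, 13.7% held the EBF core and 1.74% the octamer, so 1 match in 6 windows for each is a description only.

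Libraries held between 9.58 and 32.0 M counts in genes, and the EMT6 medium libraries stood apart. Reads in no annotated feature made up 12.8% to 15.9% of the total in WT GM-CSF libraries, 34.7% to 37.5% in WT EMT6 medium libraries and 50.1% to 50.4% in labelled Cysltr1-/- EMT6 medium libraries. The 1740 olfactory and vomeronasal receptor genes, which marrow cells are not known to use, took 0.0839% to 0.206% of gene counts in EMT6 medium libraries and 0.0148% to 0.0348% elsewhere. To put this beside each level, the density of reads outside annotated exons was multiplied by each member's exon length and is called the background level below. That density includes introns. The receptor genes gave a lower density, at 3.82 against 8.06 counts per kilobase in labelled Cysltr1-/- EMT6 medium libraries. Cysltr1 itself did not mark the genotype: it was at 50.9 ± 3.01 CPM in WT and 70.5 ± 1.28 CPM in labelled Cysltr1-/- GM-CSF libraries (SD, n = 3), and was higher in the labelled deficient libraries in all 3 cultures (log2 0.15 to 0.83, adjusted p at most 0.0301). Counts are summed over the whole gene and do not check a deletion of part of it, so the genotype below is the one on the label.

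Levels are CPM, the count scaled to a common total of gene counts per library. Fold changes come from edgeR's quasi-likelihood test with TMM scaling, and a gene is called at a Benjamini-Hochberg adjusted p under 0.05 over all tested genes. The 2 scales differ in EMT6 medium: with library sizes alone the median fold change of EMT6 medium was higher by 0.49 log2 in WT and 0.61 in labelled Cysltr1-/- cultures, and that of genotype by 0.12 (GM-CSF), 0.14 (IL-6) and 0.24 (EMT6 medium). With DESeq2 size factors the median shifted by -0.14 and -0.27 for EMT6 medium in WT and labelled Cysltr1-/- cultures. P-values measure the spread between these libraries; that they are separate pools or cultures is not stated beyond the pooling.

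Per kilobase of exon, Ighm was the most abundant member in all 6 groups, followed by Cd79b and Cd79a. In WT GM-CSF cultures the levels per kilobase fell from 83.3 CPM for Ighm through 23.7 for Cd79b, 14.6 for Cd79a, 12.3 for Ighd and 4.00 for Vpreb3 to 2.60 for Pax5, 2.39 for Ms4a1, 1.05 for Ebf1 and 0.169 for Igll1. In that order the libraries of Pax5 and Ms4a1 overlapped and no other neighbours did. Ighd held the fourth place in the 4 groups without EMT6 medium and the eighth and ninth places in WT and labelled Cysltr1-/- EMT6 medium cultures. In the latter, Ebf1 overlapped with Pax5 above it, and Ms4a1 and Vpreb3 each overlapped with the member above. So B-lineage RNA was measurable in every myeloid culture, at 2059 to 5073 Ighm counts in each library without EMT6 medium, with the single exception of 1633 in a labelled Cysltr1-/- GM-CSF library.

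**Figure D1:**
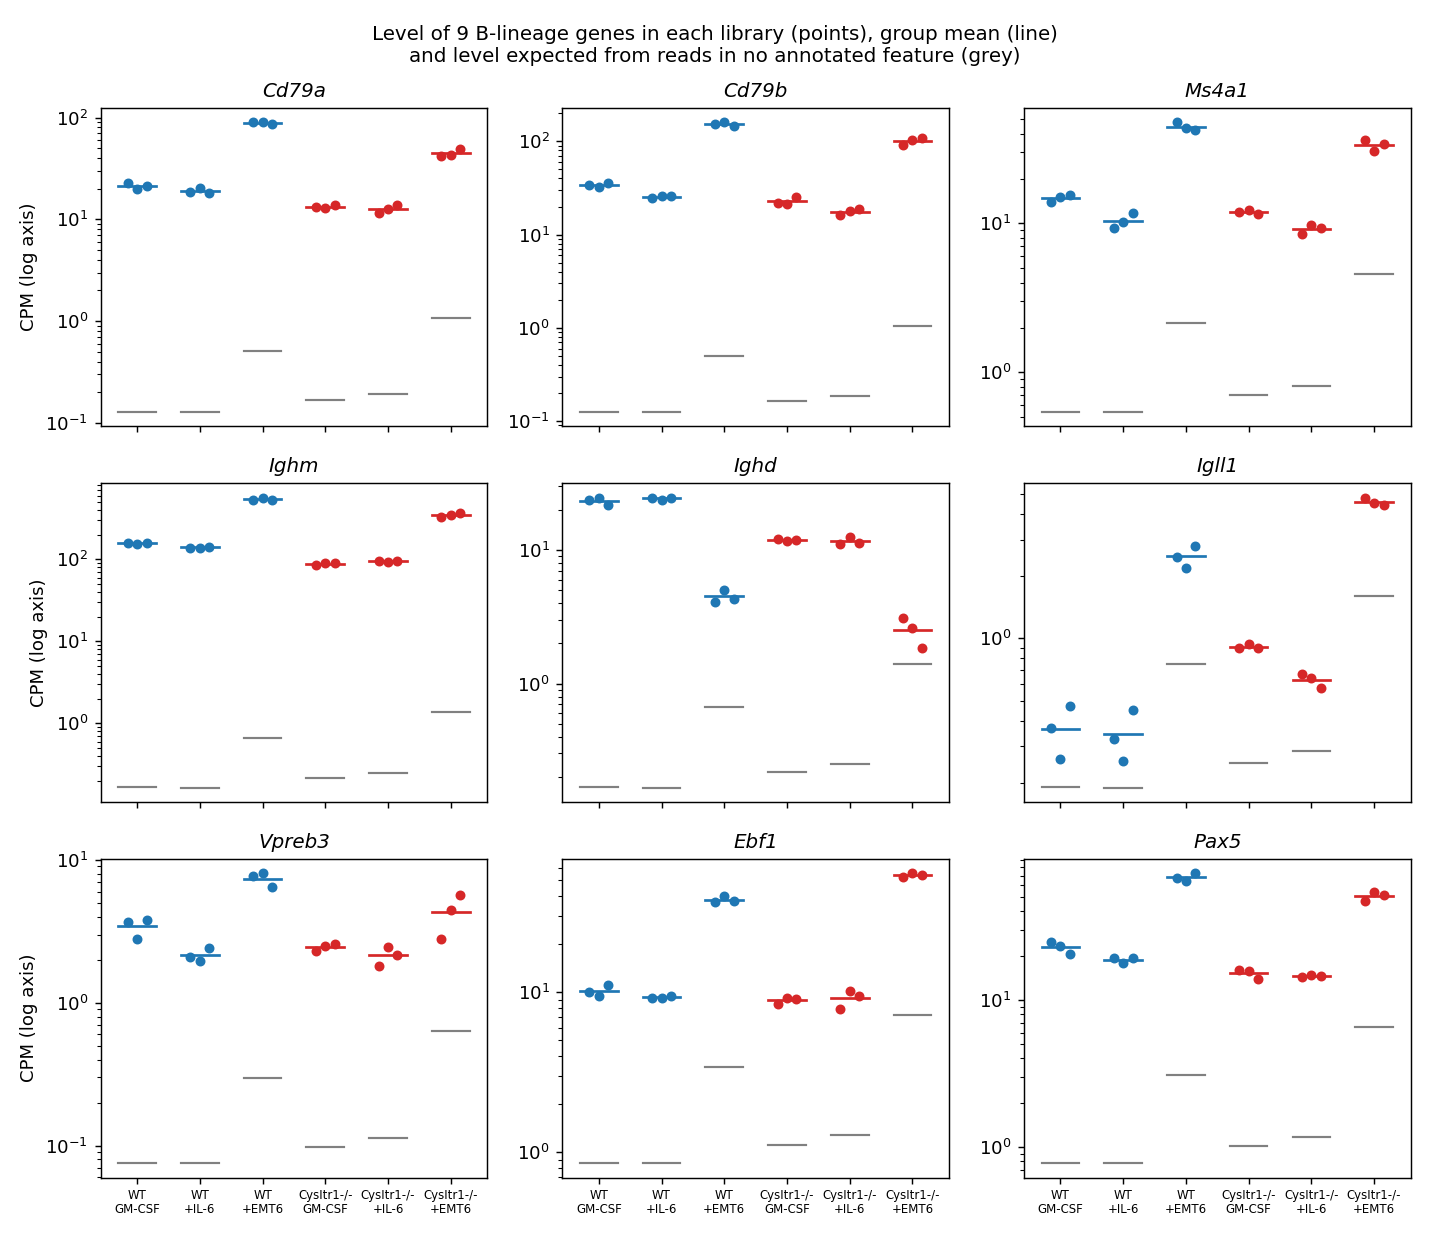
Level of each member in each of the 18 libraries in CPM on a log axis (points), the mean of the 3 libraries of a group (coloured line; blue WT, red labelled Cysltr1-/-) and the background level expected from reads outside annotated exons (grey line). Ighd is the only member that is lower in EMT6 medium, where its mean in labelled Cysltr1-/- libraries, 2.52 CPM, comes close to the grey line at 1.40 CPM.

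EMT6 medium was followed by higher levels of the receptor chains and lineage factors and by a much lower level of Ighd. In WT cultures 8 of the 9 members rose and 1 fell, against 46.8% of all tested genes that rose and 34.5% that fell. In labelled Cysltr1-/- cultures 7 rose, 1 fell and Vpreb3 was not called, against 54.3% and 32.9%. The median log2 fold change of the members was 1.30 in WT and 1.13 in labelled Cysltr1-/- cultures, beside 0.49 and 0.83 over all tested genes and -0.57 and -0.62 over tested genes with a mean of at least 5 CPM. In bulk RNA a change in the number of B-lineage cells and a change in RNA per cell cannot be told apart. Each genotype's EMT6 medium and IL-6 comparisons share the same GM-CSF libraries.

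Ighm, the IgM constant gene, stood at 157, 156 and 159 CPM in the 3 WT libraries with GM-CSF alone and at 536, 565 and 532 CPM with EMT6 medium. In labelled Cysltr1-/- cultures it stood at 85.0 to 91.5 CPM with GM-CSF and at 329, 351 and 371 CPM with EMT6 medium. The groups were far apart in both genotypes. The fitted rise was 1.30 ± 0.05 log2 (SE; adjusted p = 1.18e-26) in WT and 1.37 ± 0.05 (adjusted p = 6.02e-27) in labelled Cysltr1-/- cultures.

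Ighd, the IgD constant gene that is read from the same primary transcript, went the other way. Its counts were 583, 470 and 696 in WT GM-CSF libraries and 75, 69 and 68 in WT EMT6 medium libraries, or 23.7, 24.5 and 21.8 against 4.12, 5.05 and 4.32 CPM. Those of labelled Cysltr1-/- libraries were 296, 314 and 211 with GM-CSF and 40, 25 and 19 with EMT6 medium, or 12.0, 11.7 and 11.8 against 3.09, 2.61 and 1.85 CPM. No EMT6 medium library reached any GM-CSF library of its genotype. The fall was 7.33-fold in WT (log2 -2.87 ± 0.10 SE, adjusted p = 5.35e-28) and 7.08-fold in labelled Cysltr1-/- cultures (log2 -2.82 ± 0.14 SE, adjusted p = 8.16e-23). The background level amounted to 14.7% of the Ighd level in WT EMT6 medium libraries and 55.8% in labelled Cysltr1-/- ones, where Ighd was at 1.79 times that level. In the latter libraries it came to 17.9, 13.6 and 14.4 expected Ighd counts. The density of the receptor genes gave fewer, 8.29, 6.57 and 6.90. With the higher background subtracted the fall was -2.83 log2 in WT and -3.63 in labelled Cysltr1-/- cultures. Subtraction of the lower background was not run.

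A ratio inside a library does not depend on its scaling. For every 100 Ighm counts there were 15.1, 15.8 and 13.7 Ighd counts in WT GM-CSF libraries and 18.0, 17.1 and 17.1 with IL-6. In WT EMT6 medium libraries there were 0.769, 0.895 and 0.812. Labelled Cysltr1-/- libraries had 14.2, 13.1 and 12.9 with GM-CSF, 11.8, 13.2 and 11.9 with IL-6 and 0.938, 0.742 and 0.499 with EMT6 medium. All 6 EMT6 medium libraries thus held less than 1 Ighd count per 100 Ighm counts and the other 12 held at least 11.8. The counts of Igkc, the kappa light chain constant gene, per 100 Ighm counts averaged 37.6 ± 3.88 and 39.5 ± 1.28 (SD, n = 3) in WT GM-CSF and EMT6 medium libraries, and their ranges overlapped. In labelled Cysltr1-/- libraries that ratio ran from 44.0 to 46.0 with GM-CSF and from 37.2 to 40.8 with EMT6 medium, without overlap.

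**Figure D2:**
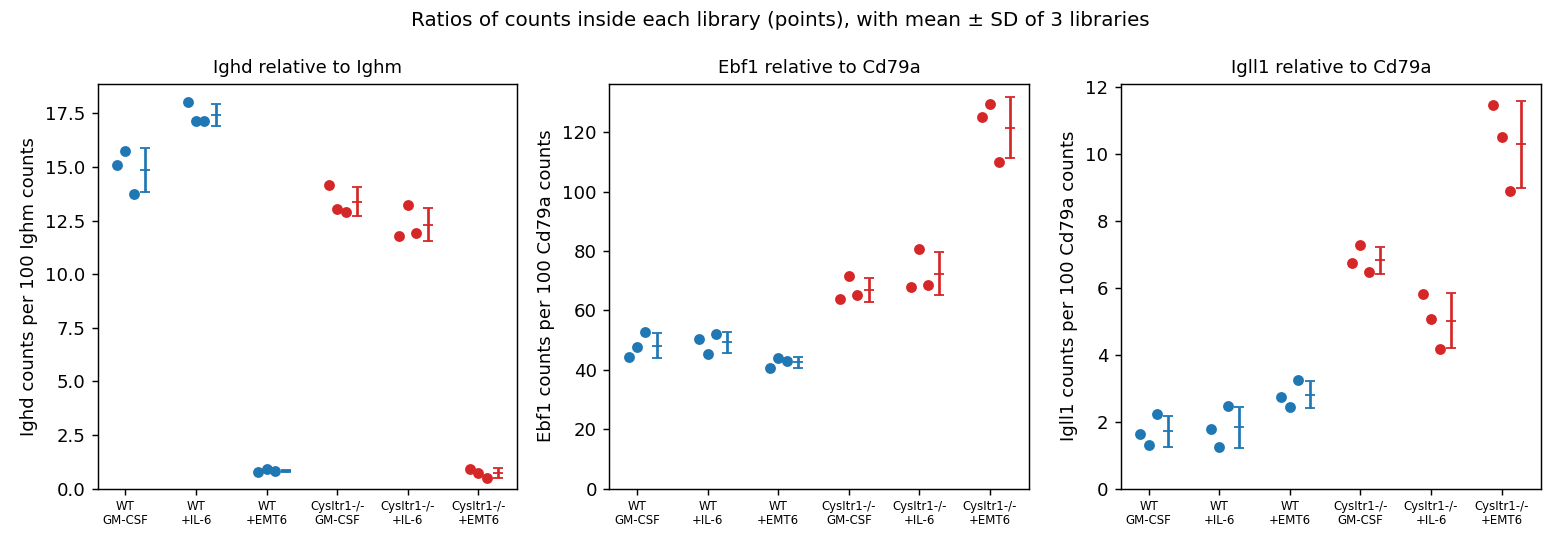
Counts of Ighd per 100 counts of Ighm, and of Ebf1 and Igll1 per 100 counts of Cd79a, in each library (points) with mean ± SD of 3 libraries, by group. The Ighd ratio lies below 1 in all 6 EMT6 medium libraries, and the Ebf1 ratio is highest in labelled Cysltr1-/- EMT6 medium libraries, at 121 ± 10.3.

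The signalling chains of the receptor rose in both genotypes. Cd79a stood at 22.6, 19.9 and 21.1 CPM in WT GM-CSF libraries and 90.1, 90.5 and 86.2 CPM with EMT6 medium, and at 13.3, 12.9 and 13.9 against 41.8, 42.8 and 49.4 CPM in labelled Cysltr1-/- libraries. Cd79b stood at 33.6, 32.1 and 35.8 against 154, 161 and 146 CPM in WT and at 21.6, 21.4 and 25.2 against 90.5, 103 and 107 CPM in labelled Cysltr1-/- libraries. Every EMT6 medium library was above every GM-CSF library of its genotype for both genes. The rises were 1.57 ± 0.07 log2 for Cd79a and 1.68 ± 0.06 for Cd79b in WT (SE; adjusted p = 1.02e-24 and 1.02e-26), and 1.13 ± 0.08 and 1.53 ± 0.07 in labelled Cysltr1-/- cultures (adjusted p = 4.71e-17 and 9.25e-24). Ms4a1, the gene of CD20, rose from 14.8 ± 0.78 to 44.6 CPM in WT and from 11.9 to 33.6 CPM in labelled Cysltr1-/- cultures, by 1.10 ± 0.08 and 0.88 ± 0.09 log2.

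The lineage factors rose as well, and Ebf1 rose most where Cd79a rose least. Ebf1 stood at 10.0, 9.49 and 11.1 CPM in WT GM-CSF libraries and 36.5, 39.9 and 37.1 CPM with EMT6 medium. Its labelled Cysltr1-/- libraries stood at 8.50, 9.20 and 9.03 CPM with GM-CSF and 52.3, 55.4 and 54.2 CPM with EMT6 medium. The 3 libraries of the last group were the highest of all 18 for Ebf1. Its rise was 1.38 ± 0.08 log2 in WT and 1.98 ± 0.08 in labelled Cysltr1-/- cultures (SE; adjusted p = 1.24e-20 and 6.61e-26). Pax5, the factor that holds B cells to their lineage, rose by 1.08 ± 0.07 and 1.11 ± 0.08 log2, from 23.0 to 68.0 CPM and from 15.3 to 51.0 CPM. The background level made up 9.00% of the Ebf1 level in WT and 13.4% in labelled Cysltr1-/- EMT6 medium libraries, and 12.8% of the Pax5 level in the latter. Pax5 and Ebf1 overlap annotated RNAs on the opposite or same strand, so their counts are uncertain to that extent.

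Igll1, a chain of the early receptor, and Vpreb3 had the fewest counts of the members. Igll1 had 9, 5 and 15 counts in WT GM-CSF libraries and 45, 30 and 44 with EMT6 medium, or 0.367, 0.261 and 0.469 against 2.47, 2.20 and 2.80 CPM. The labelled Cysltr1-/- libraries had 22, 25 and 16 counts with GM-CSF and 62, 43 and 45 with EMT6 medium, or 0.895, 0.935 and 0.897 against 4.79, 4.49 and 4.39 CPM. The groups did not overlap, and the rises were 2.21 ± 0.27 and 1.71 ± 0.23 log2 (SE; adjusted p = 1.34e-09 and 5.07e-09). These levels were 1.81 to 3.66 times the background level over the 6 groups, and with the background subtracted the rises were 2.99 and 1.85 log2 (adjusted p = 5.08e-07 and 3.21e-05). Vpreb3 had 90, 54 and 122 counts in WT GM-CSF libraries and 140, 110 and 102 with EMT6 medium, or 3.67, 2.82 and 3.81 against 7.68, 8.06 and 6.48 CPM, a rise of 0.59 ± 0.16 log2 (adjusted p = 0.00075). Labelled Cysltr1-/- libraries read 2.32, 2.51 and 2.58 against 2.78, 4.49 and 5.66 CPM, a difference of 0.16 ± 0.20 log2 that was not called (adjusted p = 0.441). It was called with library sizes alone (0.77) and with a filter that asked for at least 5 CPM in the highest group mean (0.49).

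**Figure D3:**
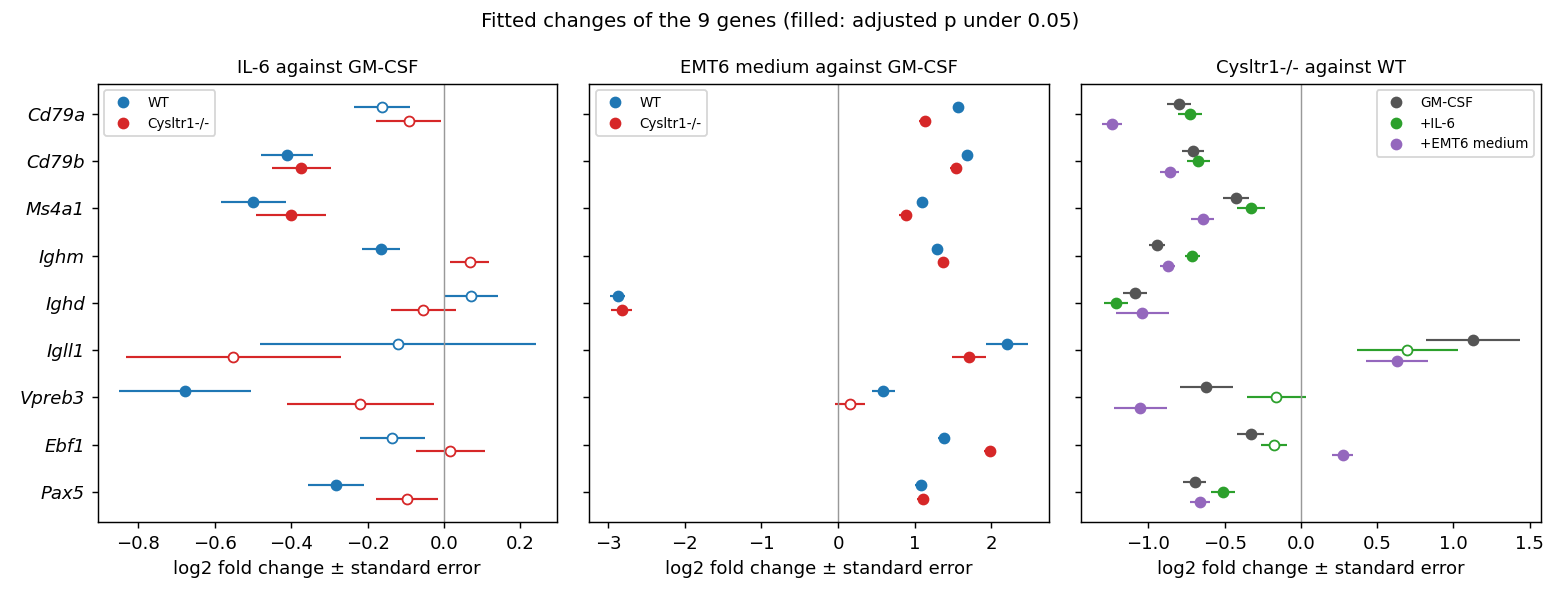
Fitted log2 fold change of each member with its standard error, for IL-6 and EMT6 medium against GM-CSF alone in each genotype, and for labelled Cysltr1-/- against WT in each culture; filled points have an adjusted p under 0.05. In EMT6 medium the 8 members other than Ighd lie to the right of 0 in both genotypes and Ighd lies at -2.87 and -2.82; the axes of the 3 panels differ.

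Other B-lineage genes were read from lists that leave out the members. Their counts stand beside the 46.8% of all tested genes that rose and 34.5% that fell in WT. In labelled Cysltr1-/- cultures these shares were 54.3% and 32.9%. All 4 light chain constant genes rose with EMT6 medium in both genotypes (median log2 2.099 and 2.283), and their summed level went from 65.3 to 80.4 CPM over WT GM-CSF libraries to 301 to 332 CPM. The most abundant were Igkc, at 59.1 CPM in WT GM-CSF and 215 CPM in WT EMT6 medium cultures, Iglc2 at 4.97 and 43.7 CPM, and Iglc3 at 3.46 and 32.9 CPM. Among 346 immunoglobulin variable segments 100 could be tested, 72 rose and 0 fell in WT, and 59 rose and 1 fell in labelled Cysltr1-/- cultures (medians 1.33 and 1.30); a segment that passed the count filter through its EMT6 medium libraries had to differ. Variable segments are near-identical in part, so single segments are uncertain and only the sum is given: 47.6 to 49.9 CPM in WT GM-CSF and 162 to 169 CPM in WT EMT6 medium libraries.

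In the co-receptor and signalling list 12 of 18 genes rose and 4 fell in WT (median 0.52), against 46.8% and 34.5% of all tested genes. In labelled Cysltr1-/- cultures 10 of its genes rose, near the 54.3% of all tested genes, and 4 fell, against 32.9% (median 0.45). Its 3 most abundant genes are also used by other blood cells: Cd37 fell by 0.67 log2, Btk, the kinase of the receptor pathway, fell by 2.18, all in WT, and Cd38 was called higher in WT (0.79 log2) and lower in labelled Cysltr1-/- cultures (-0.22, smaller in size than the scaling shift). Of 14 lineage factors 9 rose and 5 fell in WT, and 8 rose and 5 fell in labelled Cysltr1-/- cultures (medians 0.30 and 0.32); the most abundant were Irf8 (0.19 log2 in WT and -0.20 in labelled Cysltr1-/- cultures), Irf4 (-2.22 and -3.14) and Ikzf1 (-1.45 and -1.84), all used by myeloid cells too. Both Irf8 values are smaller in size than the shift between scalings. For the lineage factors too, the share that rose in labelled Cysltr1-/- cultures was near that of all tested genes. The medians of both lists stand beside 0.49 in WT and 0.83 in labelled Cysltr1-/- cultures over all tested genes. Over tested genes with a mean of at least 5 CPM these were -0.57 and -0.62, below the medians of both lists.

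Of 13 recombination and pre-B genes 11 were tested. In WT 4 rose and 6 fell, against 46.8% and 34.5% of all tested genes. In labelled Cysltr1-/- cultures 2 rose and 7 fell, against 54.3% and 32.9%. The medians were -0.52 and -0.41, beside -0.57 and -0.62 over genes of at least 5 CPM. The scaling shift of 0.61 is larger in size than the second median. The most abundant of the list were Cd24a (-1.11 log2 in WT and -0.52 in labelled Cysltr1-/- cultures), Bst1 (0.92 and 0.33) and Il7r (0.26 and -0.41), which myeloid or lymphoid cells share. The Il7r value in WT and every value in labelled Cysltr1-/- cultures are smaller in size than the scaling shift. In labelled Cysltr1-/- cultures the CPM of Cd24a went from 420 to 448. Rag1, which encodes a subunit of the recombinase and was named after its values were seen, had 37 to 58 counts in WT GM-CSF libraries and 0 to 3 in WT EMT6 medium libraries. Labelled Cysltr1-/- libraries had 15 to 36 counts with GM-CSF and 1 to 7 with EMT6 medium. Rag2, in the same list, had too few counts to test. It had 3 to 9 with GM-CSF and 0 to 3 with EMT6 medium in WT libraries, and 2 to 5 and 0 to 4 in labelled Cysltr1-/- ones.

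Lists of markers of other cells are read against the 46.8% of all genes that rose and 34.5% that fell in WT, and the 54.3% and 32.9% in labelled Cysltr1-/- cultures. Of 14 myeloid genes 2 rose and 12 fell in WT EMT6 medium cultures (median -1.61), and 3 rose and 11 fell in labelled Cysltr1-/- ones (median -1.33). Their summed level was 14480 to 16060 CPM in WT GM-CSF, 9932 to 10690 in WT EMT6 medium, 9426 to 9755 in labelled Cysltr1-/- GM-CSF and 6845 to 7738 CPM in labelled Cysltr1-/- EMT6 medium libraries, led by Lyz2, S100a9 and Cebpb. Of 15 T cell genes 14 were tested, and 7 rose and 3 fell in each genotype (medians 0.67 and 0.76), with sums of 39.8 to 41.4 and 82.6 to 94.2 CPM in WT and 46.5 to 47.9 and 101 to 109 CPM in labelled Cysltr1-/- libraries; Lat, Lck and Cd28 were the most abundant and none was at 0 throughout. Of 8 plasma cell genes 4 rose and 2 fell in WT and 5 rose and 2 fell in labelled Cysltr1-/- cultures (medians 0.78 and 0.56). Their sum, carried by Xbp1 and Sdc1 followed by Prdm1, went from 1105 to 1128 down to 391 to 406 CPM in WT. The 2 that fell in WT were Xbp1 (-2.12 log2) and Sdc1 (-1.97). The sum therefore follows these 2 genes and not the 4 less abundant ones that rose. The part of these cells in the members' changes was not tested.

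Of 10 tested plasmacytoid dendritic cell genes 4 rose and 5 fell in WT and 5 rose and 5 fell in labelled Cysltr1-/- cultures, led by Bst2, Tcf4 and Runx2, and Ptprcap was at 0 in all libraries. Of 8 tested NK cell genes, led by Nkg7, Klrk1 and Gzmb, 2 rose and 3 fell in WT and 2 rose and 4 fell in labelled Cysltr1-/- cultures. Of 6 tested epithelial genes 3 rose and 2 fell in WT and 4 rose and 1 fell in labelled Cysltr1-/- cultures. Their sum was carried by Cdh1 and dropped from 700 to 729 down to 48.0 to 50.5 CPM in WT. In WT Epcam was at 9.38 and 9.95 CPM and Krt18 at 0.758 and 3.24 CPM. Epcam was called lower there (-0.42 log2), by less than the scaling shift of 0.49. In labelled Cysltr1-/- cultures Epcam was at 5.06 and 15.1 CPM (0.96 log2, adjusted p = 8.94e-10). Of 6 tested cytokine genes that act on B cells 2 rose and 3 fell in WT and 3 rose and 3 fell in labelled Cysltr1-/- cultures; Tnfsf13b, which encodes the B-cell survival factor BAFF, went from 16.8 to 4.02 CPM in WT, Flt3l from 7.39 to 5.23 and Cxcl12 from 0.629 to 3.55 CPM.

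**Figure D4:**
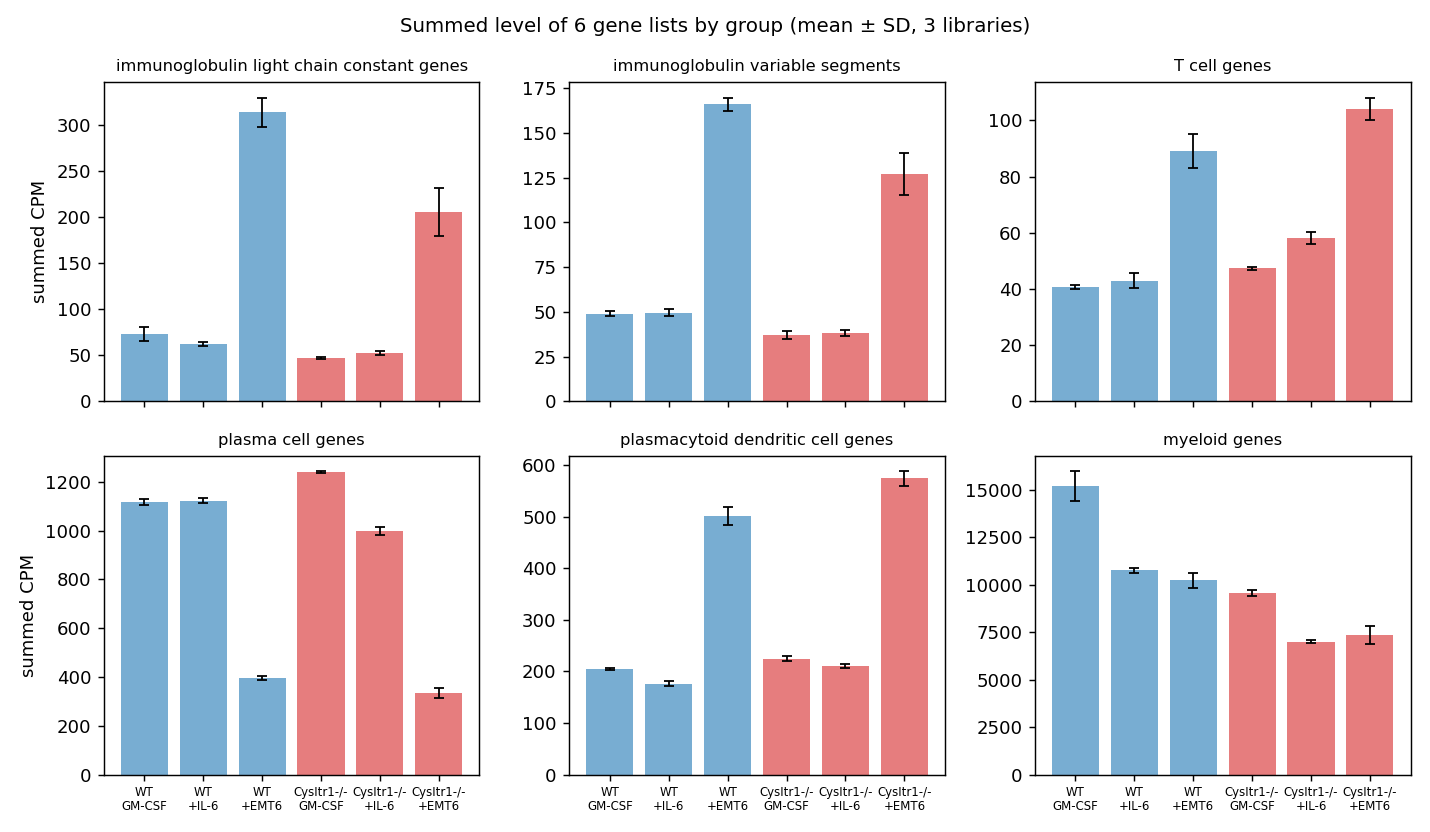
Summed level in CPM (bars, mean; error bars, SD of 3 libraries) of 6 gene lists by group, each panel with its own axis from 0. Light chain constant genes and variable segments are highest in WT EMT6 medium libraries, at 314 ± 16.1 and 166 ± 3.79 CPM, while myeloid genes are highest in WT GM-CSF libraries, at 15210 ± 798 CPM.

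With IL-6 0 members were called higher in either genotype, and the called falls were at most 0.68 log2 in size. In WT cultures 0 members rose and 5 fell, against 10.4% of all genes that rose and 11.3% that fell, and the members' median was -0.17 log2 beside -0.03 over all genes. Vpreb3 fell by 0.68 ± 0.17 log2, Ms4a1 by 0.50 ± 0.09, Cd79b by 0.41 ± 0.07, Pax5 by 0.28 ± 0.07 and Ighm by 0.17 ± 0.05 (SE; adjusted p = 0.00258, 8.13e-06, 6.02e-06, 0.00275 and 0.00986). Ms4a1 read 13.9, 14.9 and 15.5 CPM with GM-CSF and 9.30, 10.2 and 11.8 CPM with IL-6, without overlap. Ighd, in contrast to EMT6 medium, read 21.8 to 24.5 CPM with GM-CSF and 23.8 to 24.7 CPM with IL-6, and was not called (0.07 ± 0.07). The call of Ighm was lost without WT IL-6 replicate 1 (adjusted p = 0.0649) and that of Pax5 without WT GM-CSF replicate 1 (adjusted p = 0.066).

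In labelled Cysltr1-/- cultures with IL-6, 0 members rose and 2 fell, against 5.55% and 8.78% of all genes. They were Ms4a1 (-0.40 ± 0.09 log2) and Cd79b (-0.37 ± 0.08; SE, adjusted p = 0.00123 and 0.000285). The members' median was -0.10 beside 0.02 over all genes, and Ebf1, Ighm and Ighd lay within 0.07 of 0.

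Between genotypes most members were lower in the cultures labelled Cysltr1-/-. Under GM-CSF 8 of 9 were lower and 1 was higher, against 17.2% and 10.1% of all genes, with a members' median of -0.70 log2 beside 0.04 over all genes. Among the lower members the heavy-chain genes differed most: Ighd was 2.13-fold lower (-1.09 ± 0.08 log2, adjusted p = 1.21e-15) and Ighm 1.92-fold lower (-0.94 ± 0.05, adjusted p = 4.77e-20). Also lower were Cd79a at -0.80 log2, Cd79b at -0.71, Pax5 at -0.70, Vpreb3 at -0.62, Ms4a1 at -0.43 and Ebf1 at -0.33. Igll1 was the exception, 2.19-fold higher (1.13 ± 0.31 SE, adjusted p = 0.00357) at 16 to 25 counts against 5 to 15. The Ebf1 call was lost with library sizes alone (-0.21, adjusted p = 0.0744) and with no low-count filter (adjusted p = 0.0597). It was also lost with a filter at 5 CPM in the highest group mean (adjusted p = 0.0517).

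With IL-6 6 members were lower and 0 higher in labelled Cysltr1-/- cultures, against 18.4% and 12.1% of all genes, and the median was -0.51 beside 0.09. Ighd was lowest at -1.22 ± 0.08 log2, with 24.7, 23.8 and 24.5 CPM in WT and 11.2, 12.4 and 11.2 CPM in labelled Cysltr1-/- libraries. Cd79a, Ighm, Cd79b, Pax5 and Ms4a1 were lower too, at -0.73, -0.71, -0.67, -0.51 and -0.33. Ebf1, Vpreb3 and Igll1 were not called (-0.18, -0.16 and 0.70, adjusted p = 0.126, 0.562 and 0.109). With library sizes alone 5 were lower and 1, Igll1, was higher. The Ms4a1 call was lost without WT IL-6 replicate 3 (adjusted p = 0.0721) and with library sizes alone (adjusted p = 0.125).

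In EMT6 medium 7 members were lower and 2 higher in labelled Cysltr1-/- cultures, against 19.8% and 32.3% of all genes, with a median of -0.86 beside 0.27. Cd79a was 2.36-fold lower (-1.24 ± 0.07 log2, adjusted p = 3.08e-19), Vpreb3 2.07-fold, Ighd 2.06-fold, Ighm 1.83-fold, Cd79b 1.81-fold, Pax5 1.58-fold and Ms4a1 1.56-fold lower. The 2 higher members were Igll1 (0.63 ± 0.20) and Ebf1 (0.27 ± 0.07; SE, adjusted p = 0.00884 and 0.000929). Neither call held throughout. Without WT EMT6 medium replicate 1 the adjusted p was 0.0676 for Igll1 and 0.106 for Ebf1, and without labelled Cysltr1-/- EMT6 medium replicate 2 it was 0.0561 and 0.132. Igll1 was also lost without labelled Cysltr1-/- EMT6 medium replicate 1 (0.0884) and with the background subtracted (0.107), and Ebf1 without replicate 3 of that group (0.0664).

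The light chain constant genes were lower in labelled Cysltr1-/- libraries as well, 4 of 4 in each culture (medians -1.09, -0.67 and -0.94), and so were 12, 12 and 15 of the 18 co-receptor and signalling genes. Of the 14 lineage factors 7, 7 and 10 were lower and 1 higher in each culture. Other lists did not go 1 way. Of the 11 tested recombination and pre-B genes 5, 4 and 4 were lower and 2, 3 and 3 higher (medians -0.21, -0.09 and 0.23). Of the 8 plasma cell genes 1, 1 and 4 were lower and 0, 0 and 1 higher. Of all tested genes 17.2%, 18.4% and 19.8% were lower and 10.1%, 12.1% and 32.3% higher. Of the 100 tested variable segments 18, 13 and 39 were lower and 1, 2 and 2 higher. The first and second of the lower counts are near the 17.2% and 18.4% of all genes, and the third is beside 19.8%. Segments that passed the count filter only through their WT EMT6 medium libraries were picked for being high there. The third count is therefore set in part by the filter, and no excess is read from it. The decrease was not limited to B-lineage genes: 14, 14 and 13 of the 14 myeloid genes were also lower in the GM-CSF, IL-6 and EMT6 medium cultures, with medians of -0.60, -0.67 and -0.65. Of the T cell genes 3, 1 and 2 were lower and 1, 2 and 2 higher.

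Ratios to Cd79a within a library are free of scaling but carry the change of Cd79a, the most reduced member in EMT6 medium. Per 100 Cd79a counts there were 48.2 ± 4.24 Ebf1 counts in WT and 66.9 ± 4.07 in labelled Cysltr1-/- GM-CSF libraries (SD, n = 3), and 42.5 ± 1.82 and 121 ± 10.3 in EMT6 medium. For Igll1 they were 1.72 ± 0.46 and 6.82 ± 0.40 with GM-CSF and 2.81 ± 0.41 and 10.3 ± 1.30 in EMT6 medium. Each labelled Cysltr1-/- library was above each WT library of the same culture for both ratios. In EMT6 medium the same held for Pax5 (76.5 ± 6.91 in WT and 115 ± 10.9), Ms4a1 (50.1 ± 2.66 and 75.7 ± 9.75), Cd79b (173 ± 4.34 and 225 ± 13.6) and Ighm (612 ± 15.6 and 787 ± 34.7). Vpreb3 overlapped, at 7.52 to 8.91 in WT and 6.65 to 11.5 in labelled Cysltr1-/- libraries. So did Ighd, at 4.57 to 5.59 in WT and 3.755 to 7.39 in labelled Cysltr1-/- libraries.

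Whether a culture condition acted differently in the 2 genotypes was tested with interactions. For IL-6 1 member was called higher and 0 lower, against 2.92% and 4.46% of all genes. It was Ighm (0.23 ± 0.07 log2 SE, adjusted p = 0.0334), which fell with IL-6 in WT only by the tests of each genotype, and the call was lost in 8 of the 12 fits that left out 1 library. For EMT6 medium 1 member was higher and 1 lower, against 13.2% and 12.3% of all genes. Ebf1 rose more in labelled Cysltr1-/- cultures (0.60 ± 0.11, adjusted p = 3.23e-05) and Cd79a rose less (-0.44 ± 0.10, adjusted p = 0.000991). For Ighd the interaction was 0.05 ± 0.21 log2 (adjusted p = 0.914). With the background subtracted it was -0.80 (adjusted p = 0.0205), a value that rests on the higher of the 2 background densities.

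Across the 18 libraries the patterns of the members were compared with those of 18543 genes by Pearson's r of log2(CPM + 0.5); the libraries share 6 groups, so the values are descriptions. For Cd79a the most similar genes were Acsl1 (r = 0.995), Ighm (0.991) and the light chain gene Iglc1 (0.988). For Cd79b they were Tnf (0.996), Rras and Il1b, for Ighm Enpp5 (0.994), Pcyt1a and Upp1, for Ms4a1 Cited4 (0.993), Mapkapk2 and Sod2, and for Pax5 Iglc3 (0.993), Neu1 and Rras. Ebf1 was most like Sat1 (0.997), Gadd45g and Foxp1, Vpreb3 most like Ifitm3 (0.961), Cd14 and Lefty1, and Igll1 most like Prpf4 (0.993), Trpm3 and Prrg4. Ighd was most like Il17ra (0.994), Fam43a and Pygl, and its r with Ighm was -0.71. Many of these neighbours are genes of myeloid or general cell function, so a like pattern over these 6 groups was not particular to B-lineage genes.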

How the data were processed

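The 18 libraries were made with poly(A) selection. The files hold unnormalized gene counts; the authors aligned with HISAT2 2.1.0 to mm10 and counted with HTSeq 0.13.5, per the submitters' processing notes; the annotation, strand setting and filters are not given in the sources used here, so antisense overlaps (Ms4a1, Ebf1, Pax5, Vpreb3) are uncertain. DESeq2 1.34.0 is also named there; a deposited normalized table was not used. All 55536 gene IDs matched GENCODE M21. Entries that name no gene (26248 numbered entries with 0.0399% to 0.446% of feature counts, 97 spike-in entries and 5 summary lines) stayed out of library sizes and tests.

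Counts were tested with edgeR 4.0.16 in R 4.3.3 (quasi-likelihood F test, TMM, filterByExpr, 6 group means over all 18 libraries; 9 comparisons), checked on simulated data. SE is the absolute log2 fold change over the root of F. Sums, ratios and figures used Python 3.11.15. Depth of 9.58 to 32.0 M counts leaves members such as Igll1 (5 to 62 counts) imprecise. Background density counts reads in no feature per base outside annotated exons. The members, gene lists, comparisons and alternatives were chosen with earlier results of these data known. Named genes are the members, the 3 most abundant of each list, listed markers at 0 and the 3 genes most similar in pattern to each member, without predicted genes. Alternatives were DESeq2 1.42.0, its size factors, library sizes alone, other filters, a fold threshold, a replicate block, only the groups compared, subtracted background and each library left out; leaving out all EMT6 medium libraries was added after seeing the data. Same-numbered libraries did not deviate together (correlations -0.338 to 0.255), so numbers were not taken as pairs. Some genes read alongside the members are not reported here.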

Additional observations from a re-analysis of the deposited data

Results flagged for a closer look

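For 3 members the response to a culture condition differed between the genotypes by edgeR's test of the interaction. The EMT6 medium response of Ebf1 was higher by 0.60 log2 in labelled Cysltr1-/- cultures (adjusted p = 3.23e-05), and that of Cd79a was lower, at -0.44 (adjusted p = 0.000991). The IL-6 response of Ighm was higher by 0.23 (adjusted p = 0.0334). Under the alternatives Ebf1 and Cd79a kept their call in all but the rule that a log2 fold change reach 1 in size, and Ighm lost it in 12 of them.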

How the results depend on the processing

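The members' calls were recomputed under 1355 combinations of member, comparison and alternative: 1270 kept direction and side of the threshold, 61 lost the call, 23 gained one and 1 reversed, while 59 changed sign with no call in either fit and are counted among the first. The reversal was Ighd in the interaction with EMT6 medium, -0.80 with the background subtracted against 0.05. It rests on the density of reads outside annotated exons, which was higher than that of the receptor genes. Of 54 levels, 45 moved by over 1 SD with TMM library sizes. The replicate block changed no member's call (9 of 9 members called for EMT6 medium in WT, as without it).

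Requiring a log2 fold change of 1 or more in size left 0 members called for IL-6 in WT, 0 for IL-6 in labelled Cysltr1-/-, 2, 1 and 3 for genotype with GM-CSF alone, IL-6 and EMT6 medium, and 0 for each interaction; for all genes it left 574, 332, 15319 (EMT6 medium in WT), 1210, 1558, 3936, 185 and 1799. A filter at 5 CPM in the highest group mean left 12394, 12903 and 9569 genes for EMT6 medium in WT, in labelled Cysltr1-/- and for genotype in EMT6 medium. Fewer genes were then tested, and Igll1 was not among them. The interaction with IL-6 kept 0 members with DESeq2 size factors, with no low-count filter and with DESeq2, and 0 to 1 when a library was left out. The interaction with EMT6 medium had 4, 5 and 4 members under those settings and 2 to 4 when a library was left out, with Cd79b and Ms4a1 gained most often; the cause was not tested.

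Ebf1 for genotype in EMT6 medium lost its call with no low-count filter (0.13) and DESeq2 (0.17), and Igll1 likewise (0.48 and 0.52). With library sizes alone 17317 genes were higher and 6083 lower for EMT6 medium in WT (main 13262 and 9784), 19203 and 5574 in labelled Cysltr1-/- (15383 and 9317), and 4735 and 3260, 6248 and 2939, and 14312 and 2473 for genotype in the same 3 cultures (2858 and 4878, 3417 and 5215, 9143 and 5606). Without the EMT6 medium libraries 5, 2, 9, 6 and 1 members were called for IL-6 in each genotype, genotype under GM-CSF and IL-6, and their interaction, as with them.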

Other observations

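Several genes that mark the state of B cells were read after the members' values had been seen. They are given as CPM (mean ± SD, n = 3) with no test, except for Cr2 and Fcer2a, which are also in the co-receptor list. The switched heavy-chain constant genes, which replace IgM and IgD when a B cell changes class, had higher CPM in EMT6 medium in WT. Ighg1 stood at 6.34 ± 0.32 in WT GM-CSF and 52.1 ± 1.341 in WT EMT6 medium libraries, and at 16.9 ± 1.18 and 55.0 ± 2.13 in labelled Cysltr1-/- ones. Ighg3 stood at 3.00 ± 1.51 and 15.7 ± 0.99 in WT, and Igha at 4.56 ± 0.54 and 17.4 ± 0.94. Ighg2b differed between genotypes already with GM-CSF, at 2.22 ± 0.31 in WT and 6.02 ± 0.29 in labelled Cysltr1-/- libraries. Counts of these constant genes do not separate switched transcripts from unspliced or germline ones.

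Cr2, the complement receptor CD21, stood at 1.40 ± 0.13 and 8.08 ± 1.09 CPM in WT and at 0.629 ± 0.16 and 8.52 ± 0.18 in labelled Cysltr1-/- libraries. Its fitted rises were 2.04 and 3.09 log2 (edgeR, adjusted p = 5.72e-13 and 5.38e-16). Zfp318, which B cells need to make Ighd mRNA, stood at 37.2 ± 3.82 and 35.2 ± 3.32 CPM in WT and at 38.1 ± 2.46 and 25.1 ± 0.41 in labelled Cysltr1-/- libraries. On the TMM scale EMT6 medium changes were lower by a median of 0.49 log2 in WT and 0.61 in labelled Cysltr1-/- cultures. No TMM value is given for Zfp318, so its near-equal CPM in WT do not show an unchanged level. Fcer2a, the low-affinity IgE receptor CD23, stood at 13.2 ± 1.04 and 18.9 ± 2.29 CPM in WT and at 16.2 ± 1.18 and 18.8 ± 2.38 in labelled Cysltr1-/- libraries; on the TMM scale of the fit these differences were 0.04 log2 (edgeR, adjusted p = 0.69) and -0.40 (adjusted p = 0.000313). Cd86 stood at 54.2 ± 0.47 and 27.3 ± 0.69 CPM in WT. Zfp318 and Cd86 are also read from cells other than B cells.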
